A study of Mus musculus with 21 samples.

Results

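The S100 genes encode small calcium-binding proteins, and 10 of them were followed here in mouse mammary tumour cells that had been adapted to foreign tissues: S100a1, S100a4, S100a6, S100a8, S100a9, S100a10, S100a11, S100a13, S100a14 and S100a16. They are a chosen list and not the whole family, among 19937 genes with a symbol of their own on the array. The list was set with earlier results of these data known. Further S100 genes were read apart, at the end of the report, and all were under the limit described next. Each gene was read from 1 probe set, chosen by the highest mean over the 21 arrays. Of these 10, 8 were above the limit for dim probe sets (a log2 value of 7.33) in at least 1 group and were tested among 7300 genes. S100a8 and S100a9 were below it in every group. The limit keeps as many probe sets as the study kept and is not a measured detection limit, so values under it are given as measured, but folds against a group mean under it are given as "at least", with that mean set to 7.33, and no fold is given where groups on both sides are under it.

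The cells were N202, a HER2-positive clonal line that arose in mammary tumours of mice of the FVB background with a rat HER-2/neu transgene, expressed from the MMTV promoter; all cells of the study carried an H2B-GFP cassette. Spheroids of N202 were grafted onto minced C57BL/6 tissue that had revascularized in skinfold chambers of female nude mice, and each passage there lasted 21 days. The cells were then selected with G418, sorted for GFP and expanded in culture before RNA was taken, so the arrays show what persisted in culture. The groups were the parental cells with no time on tissue (P0, 2 arrays), cells adapted to brain at passages P1, P2, P3 and P4 (21, 42, 63 and 84 days, 2 arrays each), to bone marrow and to lung at the same 4 passages (1 array each), to breast at P1 (1 array), and to brain in a second adaptation experiment at P1 and P2 (1 array each). The adapted cells of a tissue descend from each other through the passages, and the second array of a brain passage, labelled a technical replicate, was made from a further culture of those cells. The replicate error is therefore that between cultures and not between adaptations.

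S100 proteins hold paired EF-hand loops, which bind calcium and open a surface for partner proteins, and most act as dimers. Inside the cell they bind annexins, myosin, actin regulators and calcium channels, and some members leave the cell and act on receptors such as RAGE and TLR4. In breast cancer S100a4 (metastasin) is known for its part in motility and spread, and S100a8 and S100a9 (calprotectin) are abundant in neutrophils.

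By level, the labelled cell type held: 7 of 8 mammary epithelial markers were above the limit, with a list mean between 9.69 and 10.3 on the log2 scale in all groups, and the exception was Krt19. Among the markers above the limit, Erbb2, Elf5 and Cldn3 moved between groups, with values at the end of the report. Of the 12 neutrophil and macrophage markers 2 were above it, Ltf and Cd68, while Ptprc, Itgam, Csf3r, Elane and Mpo stayed at or below 5.06 in every group. No marker of fibroblasts (8 genes) or endothelium (5 genes) was above the limit, 1 of 7 matched markers of glia and neurons was (Mbp) and 1 of 6 of keratinocytes was (Krt14). The floor of each array, read as the 5th percentile of its probe sets, lay between 2.01 and 2.4 on 16 arrays and between 2.49 and 3.04 on the 5 others, which were the second arrays of the 4 brain passages and lung P1. As each array holds RNA of a whole culture, fewer cells with a transcript and less transcript per cell cannot be told apart.

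All 10 genes lie on mouse chromosome 3. In the RefSeq gene order S100a1, S100a13, S100a14, S100a16, S100a4, S100a6, S100a8 and S100a9 stand in a cluster, with other S100 genes among them, and S100a11 and S100a10 lie farther along. RefSeq starts were found for 8 of the 10 (assembly GRCm38.p6), and S100a10 and S100a14 had no entry. The 250 bases before the starts are printed for the 2 members with an entry that were called lower at brain P1 and P2. These are S100a4 and S100a16 (which has 2 starts). Those of S100a8 are printed as well. S100a8 was higher on brain than at P0 as measured, but it was under the limit in every group and its differences from P0 did not pass. Capitals mark matches on either strand to the letters TGANTCA of the AP-1 motif, TTGCNNAA of C/EBP, TGACGTCA of CRE, GGGCGG of a GC box and those of a TATA box, which are TATAAA. The sequences run 5′ to 3′ on the strand of the gene.
S100a4, chr3:90603520-90603769, + strand: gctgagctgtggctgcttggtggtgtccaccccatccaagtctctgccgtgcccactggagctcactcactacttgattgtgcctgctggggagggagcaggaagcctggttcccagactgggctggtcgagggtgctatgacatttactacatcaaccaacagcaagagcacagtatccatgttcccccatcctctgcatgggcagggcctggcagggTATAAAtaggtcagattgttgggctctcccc
S100a16, first start, chr3:90537004-90537253, + strand: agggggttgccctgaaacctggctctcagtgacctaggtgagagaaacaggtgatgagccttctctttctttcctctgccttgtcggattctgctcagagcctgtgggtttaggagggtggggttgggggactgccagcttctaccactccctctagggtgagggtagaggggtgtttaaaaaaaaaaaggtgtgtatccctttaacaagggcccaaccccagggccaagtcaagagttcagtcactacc
S100a16, second start, chr3:90540896-90541145, + strand: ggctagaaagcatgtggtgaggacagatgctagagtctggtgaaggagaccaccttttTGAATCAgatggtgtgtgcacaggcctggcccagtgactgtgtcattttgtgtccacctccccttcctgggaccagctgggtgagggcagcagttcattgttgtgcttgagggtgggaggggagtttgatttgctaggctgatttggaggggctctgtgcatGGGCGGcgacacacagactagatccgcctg
S100a8, chr3:90668821-90669070, + strand: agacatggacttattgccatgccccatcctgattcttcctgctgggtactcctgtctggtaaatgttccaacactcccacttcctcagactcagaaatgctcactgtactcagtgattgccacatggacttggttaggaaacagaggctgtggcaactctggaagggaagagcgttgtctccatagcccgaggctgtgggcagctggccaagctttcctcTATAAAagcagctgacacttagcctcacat
S100a1 and S100a13 are read in opposite directions from starts 104 bases apart, and the stretch between them, given on the + strand, is thus upstream of both.
S100a1 to S100a13, chr3:90514331-90514434: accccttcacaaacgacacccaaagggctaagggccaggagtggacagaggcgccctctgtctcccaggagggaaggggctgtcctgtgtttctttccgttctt

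Counted from the start as 0, the TATA box letters began at -31 in S100a4 and at -30 in S100a8, and the same letters were found in 13.6% of 32851 promoters of 300 bases (250 before the start and 50 after it). Before S100a16 no match was found at the first start, and at the second an AP-1 match began at -192 and a GC box at -30; 7.81% and 35.7% of promoters hold these. The stretch shared by S100a1 and S100a13 held no match. S100a11, not printed, held 2 AP-1 and 3 GC box matches, S100a6 held none, and S100a9 held C/EBP letters, which 10.8% of promoters hold, at -236, a GC box at -223 and TATA box letters at 0. CRE letters, in 1.79% of promoters, were in none of the windows of the 8 members. A match is a run of letters and not a measured site.

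The members differed widely in how far they moved across the study. As measured, the group means of S100a4 spanned 5.3 on the log2 scale, those of S100a14 4.24, those of S100a16 2.94 and those of S100a6 2.49. Counted from the limit of 7.33 upward, the span was at least 3.12 for S100a4, which was under it in 1 group (brain P2), at least 2.04 for S100a16, under it in 1 group (brain P1), and at least 1.19 for S100a14, under it in 9 of 16 groups. The measured span was 1.37 for S100a11, 1.27 for S100a13 (under the limit in 6 groups, P0 among them), 0.973 for S100a1 and 0.603 for S100a10, against a median of 0.963 over all genes tested. Below the limit, S100a8 spanned 2.96 and S100a9 0.76. By its brightest group, S100a13 was the lowest of the members tested, with a largest group mean of 8.17. S100a8, the brighter of the pair left out, had 6.95, so these stood on either side of the limit of 7.33.

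**Figure D1:**
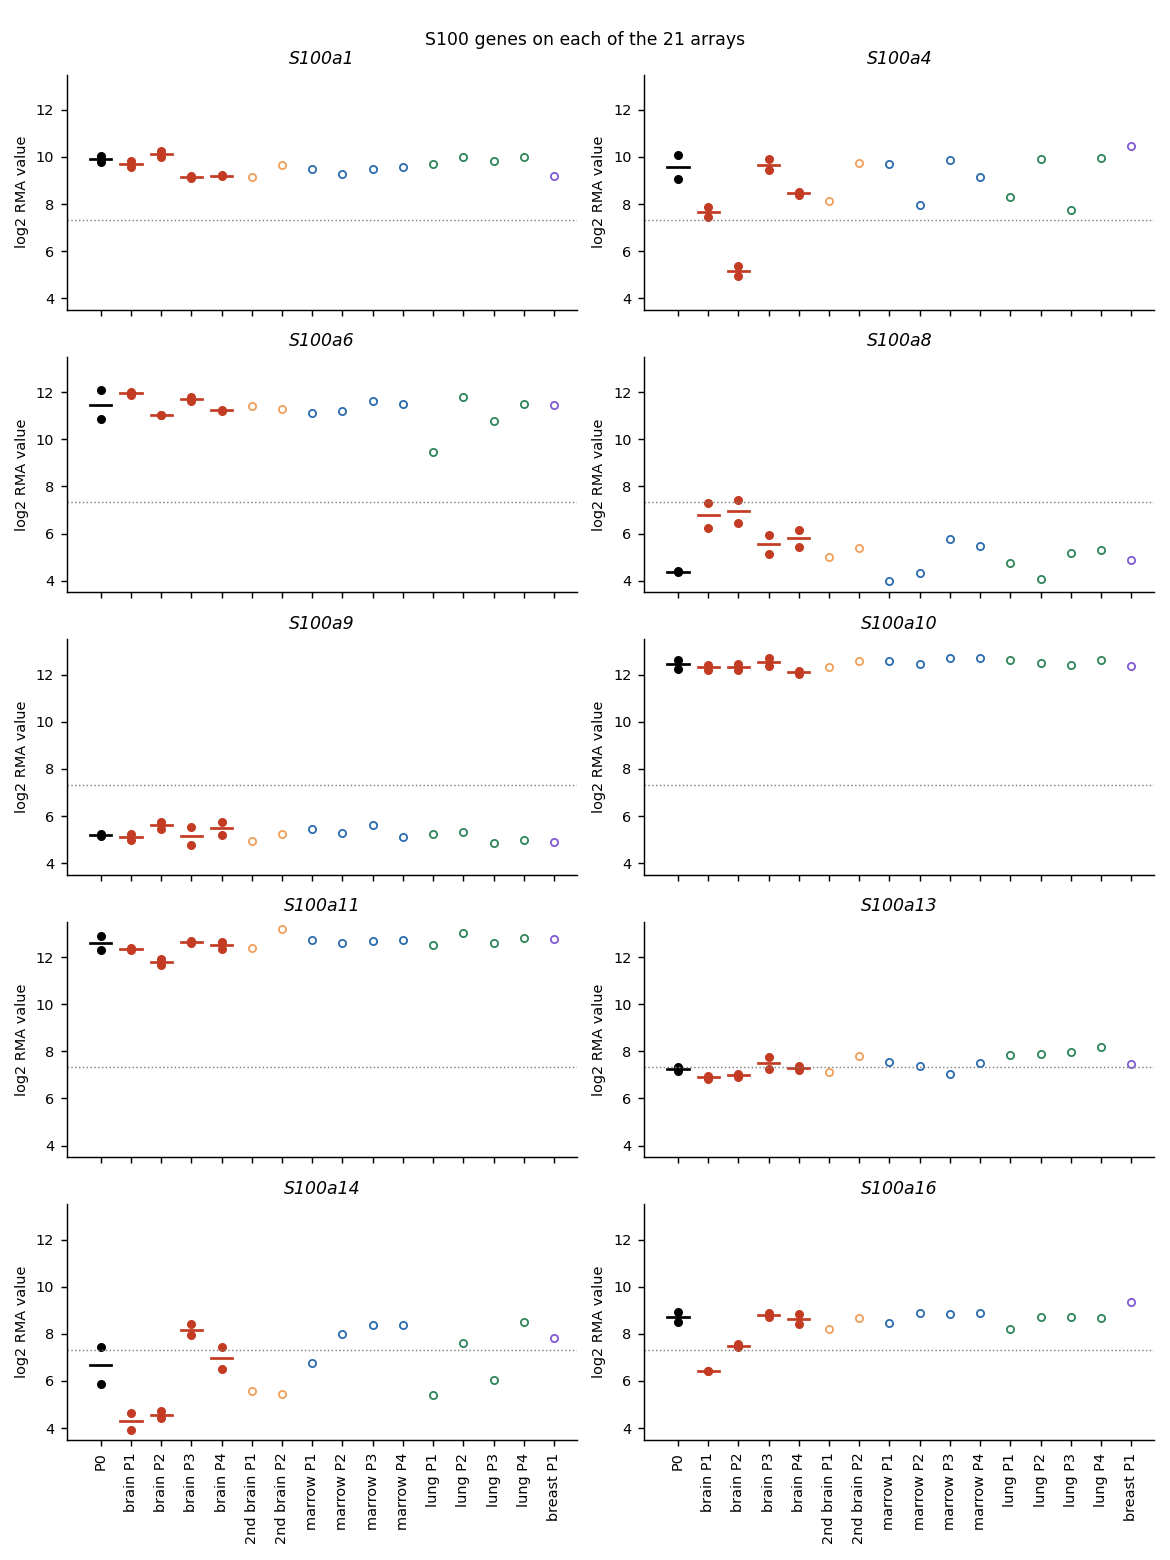
Log2 RMA value (vertical axis) of each of the 10 S100 genes on every array, by group (horizontal axis; black P0, red brain, orange second brain experiment, blue bone marrow, green lung, purple breast); filled points are groups of 2 arrays with a bar at their mean, open points groups of 1 array, and the dotted line is the limit of 7.33. S100a4 drops to about 5 at brain P2, S100a14 and S100a16 are lowest at brain P1 or P2, and S100a10 hardly moves.

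The first comparisons ask what early growth on brain tissue left in the cells. At brain P1, 3 of the 8 members fell against P0, S100a4, S100a14 and S100a16, and none rose, where 5.55% of all genes tested were called in either direction (limma, adjusted p under 0.05; 141 higher and 264 lower). At brain P2 the called members were the same 3 genes, all lower, against 13.3% of all genes. At P3 and P4 no member was called, against 0.658% and 1.01% of all genes, with 993 and 1185 of all genes at an unadjusted p under 0.05. The median log2 difference of the 8 members was -0.305 at P1, -0.627 at P2, 0.115 at P3 and -0.173 at P4, and that of all genes tested was -0.024, -0.049, -0.100 and -0.189. These 4 comparisons share the 2 P0 arrays.

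S100a4 binds non-muscle myosin. Its log2 values were 10.07 and 9.05 at P0, 7.47 and 7.89 at brain P1, 5.35 and 4.95 at P2, 9.91 and 9.44 at P3, and 8.50 and 8.40 at P4. Both arrays of P1, P2 and P4 were below both parental arrays, and those of P3 were within their range. S100a4 fell by 1.88 ± 0.34 (SE) at P1, a 3.69-fold difference (adjusted p = 0.0169), and by 4.42 ± 0.34 at P2, at least 4.7-fold, since P2 was under the limit (adjusted p = 0.000209). The difference was 0.11 ± 0.34 at P3 (adjusted p = 0.922) and -1.11 ± 0.34 at P4 (adjusted p = 0.191). From P1 to P2 alone the log2 value fell by 2.53 ± 0.34 (at least 1.27-fold, adjusted p = 0.0167), where 1.88% of all genes were called.

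The P1 call of S100a4 was lost without the first P0 array (-1.37, adjusted p = 0.073), without the first brain P1 array (-1.67, adjusted p = 0.117) and without the second (-2.09, adjusted p = 0.068), while that at P2 was kept without any 1 array of the 2 groups. The step from P1 to P2 was lost without either P1 array (adjusted p = 0.0746 and 0.135) and without the second P2 array (0.0931).

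S100a14 is a member of epithelial tissues that has lost residues needed for calcium binding, and S100a16 is widely expressed and binds calcium weakly. The log2 values of S100a14 were 7.45 and 5.88 at P0, 4.65 and 3.92 at brain P1, 4.44 and 4.71 at P2, 8.43 and 7.93 at P3, and 7.42 and 6.53 at P4. All 4 arrays of P1 and P2 were below both P0 arrays, which lay farther apart than the arrays of any brain passage, and both arrays of P3 were above them. The means of P0 (6.66), P1 (4.28) and P2 (4.57) were all under the limit, and the gene was tested because of other groups, so no fold is given. As measured, S100a14 fell by 2.38 ± 0.50 at P1 (adjusted p = 0.0333) and stood at -2.09 ± 0.50 at P2 (adjusted p = 0.0318). At P3 it was 1.52 ± 0.50 above P0 (adjusted p = 0.278), which did not pass.

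Both early calls of S100a14 were lost without the first P0 array (-1.59, adjusted p = 0.136 at P1; -1.30, adjusted p = 0.163 at P2) and without either array of the brain passage (adjusted p = 0.0845 and 0.208 at P1; 0.141 and 0.0983 at P2).

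S100a16 had log2 values of 8.94 and 8.51 at P0, 6.44 and 6.41 at brain P1, 7.45 and 7.57 at P2, 8.89 and 8.70 at P3, and 8.85 and 8.42 at P4. The 2 arrays of P1 were the lowest of all 21, those of P2 came next, and P3 and P4 lay within or just below the P0 values. S100a16 fell by 2.30 ± 0.22 at P1 (at least 2.63-fold, P1 being under the limit; adjusted p = 0.00092) and by 1.22 ± 0.22 at P2 (2.33-fold, adjusted p = 0.0104). Between the 2 passages it rose by 1.08 ± 0.22 (at least 1.13-fold, adjusted p = 0.0498), so as measured S100a4 and S100a16 moved in opposite directions in that step. The P1 call was kept without any 1 array. The P2 call was lost without the first P0 array (-1.002, adjusted p = 0.0716) and without the first brain P2 array (-1.16, adjusted p = 0.0633), and the step between the passages without any 1 of the 4 arrays (adjusted p 0.126 to 0.267).

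When the brain arrays of both adaptation experiments were taken as 1 group per passage, with the adapted line as a random block, none of these 6 calls against P0 remained: S100a4 was at -1.56 and -2.71 at P1 and P2 (adjusted p = 0.923 and 0.825), S100a14 at -1.88 and -1.72 (0.792 and 0.825) and S100a16 at -1.61 and -0.73 (0.792 and 0.850). This grouping matched the experiments by passage number, while the paper placed the passages of the second at later points of the first series. The share of all genes called was not counted in this fit or in the next one, so the lost calls cannot be set against it. Without the 5 arrays of highest floor, which leaves P0 as the only group of 2 arrays, the differences of the 3 genes were -2.01 to -2.28 at P1 and -1.28 to -4.21 at P2, and none was called (adjusted p 0.0833 to 0.343).

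**Figure D2:**
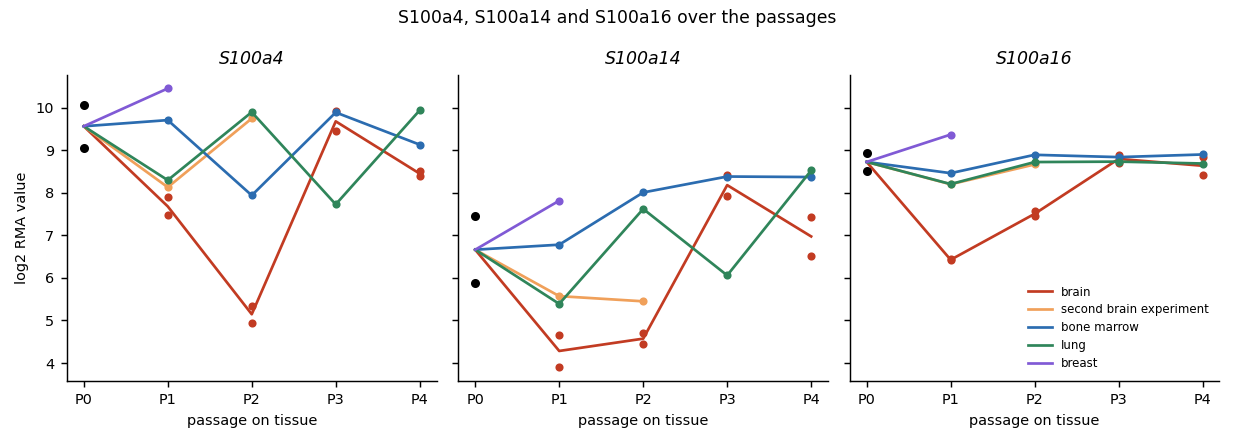
Log2 RMA values (vertical axis) of S100a4, S100a14 and S100a16 at P0 to P4 (horizontal axis) on brain (red), brain in the second experiment (orange), bone marrow (blue), lung (green) and breast (purple); points are single arrays and lines join group means, starting at the P0 mean. The red line dips at P1 and P2 in all 3 genes and is back at or above the P0 mean at P3, and the other lines stay above it at P1 and P2.

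Next come the annexin-binding members. S100a10 (p11) is the annexin A2 partner and has lost the ability to bind calcium, S100a11 binds annexin A1, and S100a6 (calcyclin) binds annexin A11 and the ubiquitin ligase adaptor CacyBP. S100a10 ranged from 12.05 to 12.72 over all 21 arrays and was called in no comparison. S100a11 had log2 values of 12.92 and 12.30 at P0 and of 11.94 and 11.68 at brain P2, the lowest of all arrays. Its difference at P2 was -0.80 ± 0.23 (adjusted p = 0.0585), which did not pass, while a second probe set of the gene, whose values had r = 0.963 with the first over the 21 arrays, passed at -1.02 (adjusted p = 0.0331). RefSeq also lists a pseudogene, S100a11-ps, and probes shared with it cannot be told apart here.

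S100a6 differed between the 2 parental arrays, at 12.08 and 10.88, by more than between the arrays of any brain passage. It was 12.02 and 11.88 at brain P1, 11.03 on both arrays of P2, 11.78 and 11.62 at P3, and 11.26 and 11.21 at P4. None of its comparisons passed over all arrays, with 0.47 ± 0.33 at P1 (adjusted p = 0.49) and -0.45 ± 0.33 at P2 (adjusted p = 0.431). The parental arrays decided both values: S100a6 was called higher at P1 without the first P0 array (1.07, adjusted p = 0.0484) and lower at P2 without the second (-1.05, adjusted p = 0.0287). Its lowest value was on the single lung P1 array, 9.46, while the other lung passages gave 11.80, 10.78 and 11.49. Without the second P0 array S100a11 was called lower at P2 too (-1.12, adjusted p = 0.0341), making 5 members.

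S100a1 tunes calcium release and uptake in muscle, and S100a13 takes part in the release of FGF1 from cells. These genes share the stretch between their starts that is printed above. S100a1 was 9.80 and 10.05 at P0, 9.59 and 9.83 at brain P1, 10.25 and about 10 at P2, 9.20 and 9.12 at P3, and 9.23 and 9.17 at P4. The 4 late arrays were below the other 6, with differences from P0 of -0.76 ± 0.18 at P3 (adjusted p = 0.136) and -0.72 ± 0.18 at P4 (adjusted p = 0.131). S100a13 was 7.34 and 7.16 at P0 and between 6.84 and 7.04 on the 4 early brain arrays, all below P0, but its differences of -0.35 ± 0.20 and -0.27 ± 0.20 did not pass (adjusted p = 0.397 and 0.458). Over the 16 group means the pair had r = 0.262, a description of groups that share lineages.

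The late passages were compared with the early ones directly, a contrast that leaves P0 out. Of the 8 members 4 were higher in late brain (mean of P3 and P4) than in early brain (mean of P1 and P2) and 1 was lower, where 27.5% of all genes were called (797 higher and 1213 lower). The median was 0.482 over the members and -0.103 over all genes. S100a14, under the limit at P1, P2 and P4, was higher by 3.15 ± 0.36 as measured (adjusted p = 0.00058), and no fold is given. S100a4 was higher by 2.65 ± 0.24 (at least 2.95-fold, adjusted p = 0.000168) and S100a16 by 1.75 ± 0.15 (at least 2.46-fold, adjusted p = 0.000146). S100a1 fell by 0.74 ± 0.13 (adjusted p = 0.00454). S100a13 was higher by 0.46 ± 0.14 as measured (adjusted p = 0.0463), but it too was under the limit at P1, P2 and P4. Counted from the limit, its difference was 0.086. The call of S100a13 was lost without any 1 of 7 of the 8 arrays, the first brain P3 array being the exception (adjusted p 0.0741 to 0.133). Without the 5 arrays of highest floor no member was called, and the differences of S100a4, S100a14 and S100a16 were 2.80, 3.38 and 1.93 (adjusted p = 0.0652, 0.0869 and 0.0535).

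At P4 the median of all genes lay 0.189 below P0, and the small P4 differences of S100a11 and S100a16 changed sign with array medians made equal, that of S100a16 also with cyclic loess. No called difference of a member changed sign under either scaling.

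S100a8 and S100a9 form the secreted dimer calprotectin. S100a8 was 4.38 and 4.40 at P0 and 6.24 and 7.29 at brain P1, 6.46 and 7.43 at P2, 5.15 and 5.95 at P3, and 5.45 and 6.15 at P4. All 8 brain arrays were above both P0 arrays, and in each passage the second array, 1 of the 5 with the highest floor, was the higher one. In a fit with no filter on dim probe sets the differences from P0 were 2.38 ± 0.49 at P1 (adjusted p = 0.137) and 2.56 ± 0.49 at P2 (adjusted p = 0.0859), which did not pass. Early brain was 2.58 ± 0.34 above early bone marrow and lung in that fit (adjusted p = 0.0120). S100a9, its partner, stayed between 4.78 and 5.75 on all arrays, with 0.03 ± 0.22 in the same contrast (adjusted p = 0.983).

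Markers of neutrophils and macrophages were read beside S100a8. The mean of the 12 markers lay between 4.55 (breast P1) and 5.18 (brain P2). Cd68, a lysosomal protein, rose by 1.94 ± 0.34 at brain P1 (adjusted p = 0.0167) and by 2.24 ± 0.34 at P2 (adjusted p = 0.00599). The P0 mean of Cd68, 6.01, was under the limit, and its highest group mean, 8.26, was that of brain P2. Cd68 was thus tested because of a group in which it was high, and its differences are as measured. Ltf, which encodes lactoferrin, a protein of neutrophil granules and of milk, was 2.27 ± 0.86 and 2.51 ± 0.86 above P0 (adjusted p = 0.186 and 0.0995). The other 10 markers, Ptprc and Itgam among them, did not exceed 5.69 in any group.

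**Figure D3:**
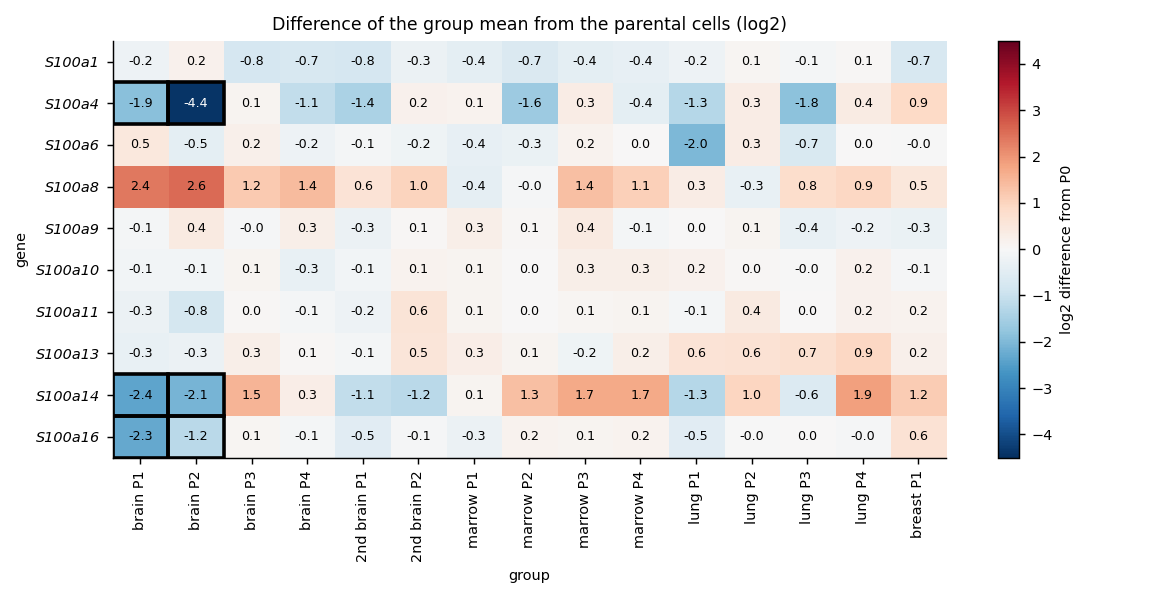
Difference of each group mean from the P0 mean on the log2 scale (colour and printed value; blue lower, red higher) for the 10 S100 genes (rows) in the other 15 groups (columns), with a black frame where the comparison of that single group with P0 was called. The 6 frames are S100a4, S100a14 and S100a16 at brain P1 and P2; single bone marrow and lung passages were not tested against P0 one by one.

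The tissues were compared next. Against P0, no member was called in bone marrow (mean of 4 passages; 0.37% of all genes called) or lung (0.205%), nor between these 2 tissues (0.123%), with 634, 380 and 1032 of all genes at an unadjusted p under 0.05. When the passages of a tissue were taken as samples of 1 group, no member was called either, and the share of all genes called was not counted. S100a4 alternated between passages, with 9.71, 7.94, 9.89 and 9.13 on bone marrow from P1 to P4 and 8.30, 9.89, 7.73 and 9.94 on lung, each value from 1 array. S100a13 was 7.86, 7.88, 7.98 and 8.17 on the 4 lung arrays, above both P0 values each time, and the difference of 0.72 ± 0.18 did not pass (adjusted p = 0.371). S100a14 was 6.78, 8.01, 8.38 and 8.37 on bone marrow, 1.22 ± 0.44 above P0 (adjusted p = 0.50).

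Early brain (P1 and P2) differed from the same passages on bone marrow and lung in 5 of 8 members, all lower (with chromosome medians subtracted, 3 lower and 2 higher), where 23.6% of all genes were called (718 higher and 1003 lower). The median over the members was -0.687 and that over all genes 0.002. S100a4 was at -2.55 ± 0.24 (adjusted p = 0.000263), S100a14 at -2.52 ± 0.36 (adjusted p = 0.00173) and S100a16 at -1.60 ± 0.15 (adjusted p = 0.000297). S100a13 was lower by a smaller amount, -0.73 ± 0.14 (adjusted p = 0.00847), and so was S100a11, -0.65 ± 0.16 (adjusted p = 0.0237). The call of S100a11 was lost without any 1 of 4 arrays, both of brain P1, the second of brain P2 and lung P2 (adjusted p 0.0645 to 0.0788). Without the lung P2 array S100a6 was called higher (0.90, adjusted p = 0.037). Without the 5 arrays of highest floor only S100a16 was called.

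For S100a4, S100a14 and S100a16 all 4 early brain arrays were below all 4 early arrays of the other tissues. For S100a4 the margin was narrow, since the higher brain P1 array gave 7.89 and bone marrow P2 gave 7.94. At the late passages no member was called between brain and the other tissues, where 0.0411% of all genes were called and 820 had an unadjusted p under 0.05.

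On breast tissue at P1 no member was called against P0 (0.26% of all genes; 541 at an unadjusted p under 0.05). The single array gave the highest S100a4 value of the study, 10.45, and the highest S100a16 value, 9.37, with differences from P0 of 0.89 ± 0.41 (adjusted p = 0.728) and 0.64 ± 0.27 (adjusted p = 0.652). Its SE borrows the spread of the paired arrays.

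The second adaptation to brain asked whether the early course recurred at the same passage numbers. The paper placed P1 and P2 of the second experiment at later points of the first series and read this as more rapid adaptation. At P1 all 8 members were below P0 but none was called, where 1.55% of all genes were called (1280 at an unadjusted p under 0.05), and S100a4 at 8.13 and S100a14 at 5.57 were at -1.43 ± 0.41 (adjusted p = 0.139) and -1.09 ± 0.62 (adjusted p = 0.446). At P2 no gene was called (0%; 531 at an unadjusted p under 0.05), and S100a4 was 9.75, within the P0 range, where the first experiment had 5.35 and 4.95. Averaged over P1 and P2, the second experiment was above the first in S100a4 by 2.53 ± 0.29 (at least 2.7-fold, adjusted p = 0.0013) and in S100a16 by 1.47 ± 0.19 (at least 2.02-fold, adjusted p = 0.00201), the 2 members called, against 13.3% of all genes. S100a14, at 5.57 and 5.45, was below both P0 arrays in the second experiment too, and its difference of 1.08 ± 0.44 between them did not pass (adjusted p = 0.16). Both calls were kept without any 1 array of the first experiment and lost without the 5 arrays of highest floor (2.53 and 1.49, adjusted p = 0.0852 and 0.0873). Experiment and adapted line cannot be told apart, as each experiment holds 1 line.

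Known binding partners and receptors of S100 proteins were read as a list of 35 genes, of which 34 were matched by symbol and 24 were tested. At brain P1, 5 fell and none rose (20.8% called, against 5.55% of all genes; median of the 24, -0.117), and at P2, 5 fell and 1 rose (25% against 13.3%; median -0.417). Whether shifts of whole chromosomes enter the partner counts or the differences of single partners, here and below, was not tested. Relative to P0, the median of chromosome 4 stood at -0.597 at brain P1 and -0.573 at P2, and that of chromosome 14 at -0.339 and -0.329. Embigin (Emb), a membrane glycoprotein described as a receptor for S100a4, fell by 1.69 ± 0.18 at P1 (adjusted p = 0.00165) and by 2.77 ± 0.18 at P2 (adjusted p = 9.2e-05). Emb was also called lower on lung than at P0, at -1.28 ± 0.16 (adjusted p = 0.016), and higher on bone marrow than on lung, by 1.5 ± 0.13 (adjusted p = 0.00365). Its P0 mean of 7.24 was just under the limit, its group means ran from 3.55 to 8.06, and all these values are as measured. In the second experiment Emb was 0.50 ± 0.22 and 0.80 ± 0.22 above P0 at P1 and P2 (adjusted p = 0.323 and 0.471), and 2.88 ± 0.16 above the first experiment (adjusted p = 2.5e-05).

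Among the annexins, Anxa11 fell by 1.22 ± 0.18 at P2 (adjusted p = 0.00559) and Anxa1 by 1.02 ± 0.17 (adjusted p = 0.00813), while Anxa6 rose by 1.03 ± 0.24 (adjusted p = 0.028). Anxa2, the partner of S100a10, was at 0.08 and -0.67 and was called at neither passage (adjusted p = 0.942 and 0.251). Capzb, the actin capping protein subunit, fell by 0.68 ± 0.15 at P1 (adjusted p = 0.04) and by 0.85 ± 0.15 at P2 (adjusted p = 0.0109). The calcium channel Trpv6 fell by 2.23 ± 0.35 at P1 (adjusted p = 0.0102), and the enzyme Pgm1 by 1.05 ± 0.21 (adjusted p = 0.0257).

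No partner was called at P3, and at P4 only Alcam, an adhesion molecule, was, at -1.12 ± 0.18 (adjusted p = 0.0306). From early to late brain 7 of the 24 rose and 2 fell, with Emb at 1.86 ± 0.13 (adjusted p = 3.9e-05) and Anxa11 at 1.27 ± 0.13 (adjusted p = 0.000336), and the median was 0.20; the share called was 37.5%, against 27.5% of all genes. Against early bone marrow and lung, early brain was lower in 7 of the 24 and higher in none (median -0.216), a share of 29.2%, against 23.6% of all genes.

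Across the 16 group means S100a4 and S100a11 had r = 0.856, S100a14 and S100a16 0.775, and S100a4 had 0.659 with S100a14. S100a8 ran the other way from S100a16 (r = -0.602). These describe groups that share lineages and arrays, without a test. The genes with the course most like that of S100a4 were Eml1 (r = 0.922), Tuba4a (0.909) and Incenp (0.908), those for S100a14 were Szrd1 (0.947), Desi1 (0.922) and Aprt (0.903), and those for S100a16 were Lypla2 (0.95), Crip2 (0.95) and Ckap4 (0.919). For S100a1 they were Nr1d2 (0.918), Fam32a (0.877) and Inpp5k (0.858), for S100a6 Gsn (0.846), Gm10548 (0.84) and Tmem40 (0.825), and for S100a10 Mrpl47 (0.818), Zfp207 (0.817) and Sfr1 (0.811). For S100a11 they were 4930579G24Rik (0.894), Hmgn2 (0.881) and Gm4750 (0.879), and for S100a13 they were 2510039O18Rik (0.909), Sec24d (0.883) and Psme2 (0.869).

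Since all members lie on chromosome 3, the other genes of that chromosome were read beside them. The 395 other tested genes there had a median of -0.298 at brain P1 and -0.354 at P2, against -0.011 and -0.034 for 6894 genes of the other chromosomes, with 5 called higher and 26 lower at P1 and 11 higher and 70 lower at P2. Early brain against early bone marrow and lung gave a median of -0.364 (13 higher and 134 lower) against 0.020 elsewhere. The second experiment against the first gave 0.419 (94 higher and 8 lower) against 0.000263. At P3 the median was -0.076 and that of the other chromosomes -0.103. Within 2 Mb of the cluster 42 genes had medians of -0.383 at P1 (0 higher and 2 lower) and -0.274 at P2 (1 higher and 8 lower).

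The nearest tested gene on one side of the cluster, Chtop, was at -0.66 and -0.48 at P1 and P2 (adjusted p = 0.0549 and 0.0977), and that on the other, Pglyrp3, was at 0.49 and -2.45 (adjusted p = 0.398 and 0.00226). The highest differences at P2 within the 2 Mb were those of Mex3a, 1.5 (adjusted p = 0.0164), and Hax1, 0.90 (adjusted p = 0.375), and the lowest were those of Pglyrp3 and Shc1, -1.29 (adjusted p = 0.0238).

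With the median of each chromosome subtracted, relative to P0, S100a4 stayed called at -1.59 and -4.07 (adjusted p = 0.0388 and 0.000469) and S100a16 at -2.00 and -0.87 (adjusted p = 0.00202 and 0.0377). S100a14 was at -2.08 and -1.74 and no longer called (adjusted p = 0.0638 and 0.0677). S100a13 lost its calls in late against early brain (0.30, adjusted p = 0.243) and in early brain against the other tissues (-0.37, adjusted p = 0.17), and S100a11 lost the latter (-0.30, adjusted p = 0.283). In that contrast S100a1 and S100a6 were called higher instead, at 0.65 (adjusted p = 0.00709) and 0.95 (adjusted p = 0.0307), so 3 of the 5 called members were lower and 2 higher. Between the experiments S100a1 was added as lower in the second, at -0.90 (adjusted p = 0.0071). The part of a shift of the whole chromosome in the remaining differences was not tested.

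**Figure D4:**
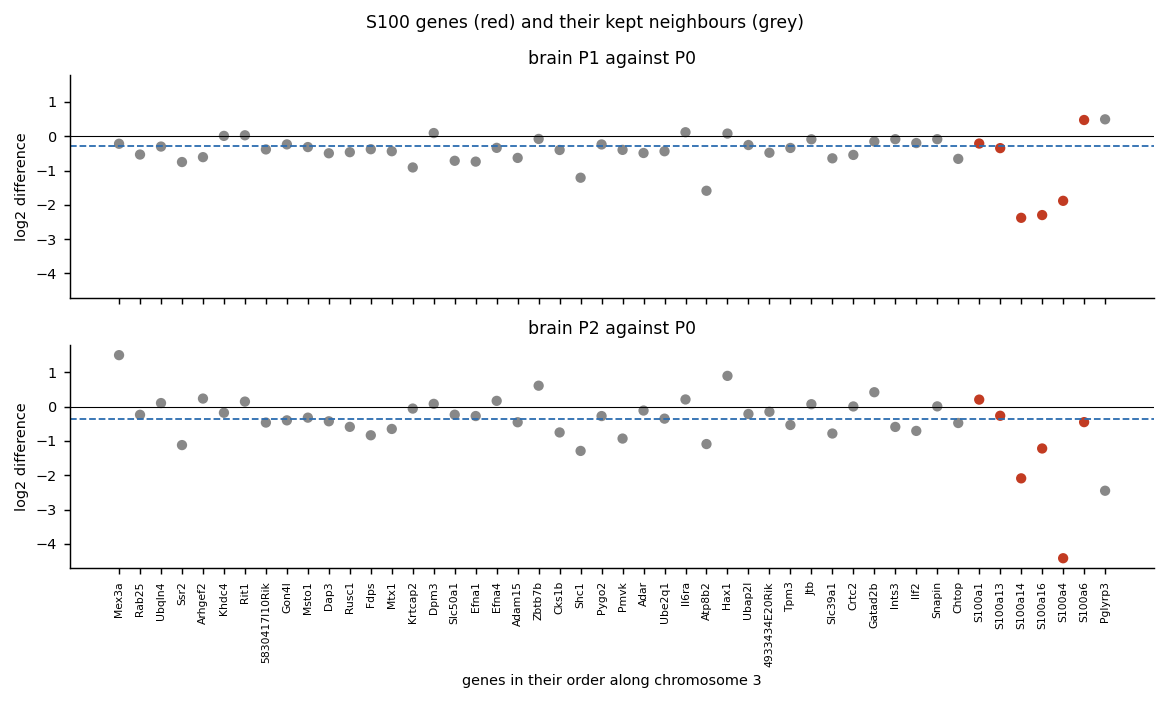
Log2 difference from P0 (vertical axis) at brain P1 (top) and P2 (bottom) for 6 S100 genes of the cluster (red) and the 42 tested genes within 2 Mb of it (grey), in their order along chromosome 3 (horizontal axis, not to scale); the dashed line is the median of the 395 other genes of the chromosome, -0.298 and -0.354. S100a4, S100a14 and S100a16 follow each other among the tested genes and lie below nearly all neighbours, and S100a1, S100a13 and S100a6 lie within their range.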

How the data were processed

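N202 cells were measured on 21 Affymetrix Mouse Gene 1.0 ST arrays in 16 groups, which were taken from the labels. The deposited values are log2 values per probe set, made by the authors with RMA in the Affymetrix Expression Console (background correction, quantile normalization, median polish); its version is not given in the sources used here. No further scaling was applied. Of 34760 probe sets, 21640 carry 1 gene symbol, 1321 several and 11799 none, and the brightest of several probe sets of a gene was used. The authors removed dim probe sets against control probes not used here; the same number, 10522, was kept by the largest group mean (lowest 7.33). The filters differ on S100a8, which the study's gene groups include.

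With R 4.3.3 and limma 3.58.1, a linear model with 16 group means was fitted to these probe sets (lmFit, eBayes; 5 residual degrees of freedom, prior 3.9). The adjusted p is Benjamini-Hochberg over the 10522 probe sets, called under 0.05; counts are over 7300 genes. All tests are two-sided. A group of 1 array is assumed to vary like the pairs. The number of arrays limits the precision. The fit was tested on simulated data.

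The members, lists and tests were chosen with earlier results of these data known. The genes named are the 10 members, the called partners (at most 4 per comparison, by lowest p), the nearest and most changed neighbours, and the 3 genes most correlated with each tested member. Outside that rule, Anxa6, the partner called higher at brain P2, and Anxa2, the uncalled partner of S100a10, are named too. Lists of other S100 genes, S100 partners and markers of 6 cell types were read. Other filters, scalings, variance priors and probe set rules, a fold limit, chromosome medians, a replicate block, both experiments together and arrays left out were tried. Motifs and figures were made with Python 3.11.15 and matplotlib 3.10.9.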

Additional observations from a re-analysis of the deposited data

Results flagged for a closer look

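The direct tests between tissues or experiments passed for these differences, on the log2 scale with limma's adjusted p. Early brain was below early bone marrow and lung in S100a4 (-2.55, adjusted p = 0.000263), S100a11 (-0.65, adjusted p = 0.0237), S100a13 (-0.73, adjusted p = 0.00847), S100a14 (-2.52, adjusted p = 0.00173) and S100a16 (-1.60, adjusted p = 0.000297). S100a14 was under the limit for dim probe sets in 4 groups of this contrast, on both sides, and counted from the limit its difference was -0.24. The second brain experiment was above the first in S100a4 (2.53, adjusted p = 0.0013) and S100a16 (1.47, adjusted p = 0.00201). No group had the 4 arrays that a check for a single outlying array needs.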

How the results depend on the processing

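The share of all genes called was counted for the main fit only. In that fit the number of members called was 3 at brain P1, 3 at P2, 2 from P1 to P2, 5 in late against early brain, 5 in early brain against early bone marrow and lung, and 2 between the experiments. With no filter, which tests every probe set, it was 1 at P1 (S100a16), 1 at P2 (S100a4) and 0 from P1 to P2. With a 2-fold limit it was 3 in late against early brain and 3 in early brain against the other tissues. With both brain experiments as 1 group it was 0 at P1 and 0 at P2. Without the 5 arrays with the highest floor, an alternative chosen after seeing the data, it was 0 at P1, 0 at P2, 0 from P1 to P2, 0 in late against early brain, 1 in early brain against the other tissues and 0 between the experiments. Leaving out 1 array at a time gave 1 to 3 at P1, 1 to 5 at P2, 0 to 1 from P1 to P2, 4 to 5 in late against early brain, 4 to 5 in early brain against the other tissues and 2 between the experiments. The single arrays of the second experiment and of breast tissue were never among those left out, so that side of the contrast between experiments was not varied. S100a11, not called at P2 or in late against early brain, was called lower at P2 with a stricter filter, a variance trend and the mean of its probe sets (adjusted p = 0.0426, 0.0275 and 0.0409) and higher in late brain with these 3 (0.0431, 0.0274 and 0.0485) and with equal array medians (0.0286). Between the experiments it was called with a stricter filter and a variance trend (0.0413 and 0.0268), and S100a1 with equal array medians and cyclic loess (0.0491 and 0.0441). No called member changed direction under any alternative, and the comparisons with 0 calls gave 0 under all of them.

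Arrays of the same number deviated in the same direction in all 10 pairs of groups, weakly (r 0.00886 to 0.357, over 0.1 in 7), and the labels give no shared day or batch, so the main comparisons did not pair them. With the replicate number as a block the counts were 3 at P1, 4 at P2 (S100a11 added), 2 from P1 to P2 and 6 in late against early brain (S100a11 added).

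The spread rests on 5 groups of 2 arrays, all from cultures of the same cells, and most groups have 1 array; a difference between adaptations of 1 tissue can be seen only between the 2 brain lines. Values under the limit for dim probe sets bound the folds of S100a4, S100a14 and S100a16 and leave S100a8 and S100a9 outside the main test.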

Other observations

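Of 11 further genes of the S100 and fused-type S100 families, 10 were matched and none was above the limit for dim probe sets in any group. S100b, a glial member, had group means between 4.6 and 5.51, with 4.82 at P0, and S100a3, which stands between S100a16 and S100a4 on the chromosome, between 4.70 and 5.84. The highest of the 10 was Tchh, which encodes trichohyalin of hair follicles, at 5.42 to 6.42, and the lowest was Rptn at 2.49 to 3.66.

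Krt14, a basal keratin and 1 of the keratinocyte markers, fell by 1.60 ± 0.33 at brain P2 (adjusted p = 0.0164). It was at -0.52 ± 0.33 at P1 (adjusted p = 0.433) and at 0.21 and 0.51 at P3 and P4 (adjusted p = 0.832 and 0.492). Erbb2, the gene of the receptor whose rat version the cells carry, was called lower than P0 at brain P1 (-1.19, adjusted p = 0.0153), P2 (-0.76, adjusted p = 0.0476) and P3 (-1.24, adjusted p = 0.039) and at P1 of the second experiment (-1.69, adjusted p = 0.0207). It was at -0.82 at brain P4, -0.91 on bone marrow, -0.91 on breast and -0.20 on lung (adjusted p = 0.129, 0.112, 0.32 and 0.993). Of the other mammary markers, Elf5 was called lower than P0 at brain P3 (-1.56, adjusted p = 0.0303) and at P1 of the second experiment (-1.65, adjusted p = 0.0325). Cldn3 was called higher at brain P2 (0.72, adjusted p = 0.0258). Krt8, Krt18, Epcam and Cdh1 were called in no comparison.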
